A study of Mus musculus with 14 samples.

Results

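The genes described here are 40 genes of the cell division cycle, listed by function, with no measured value in the rule, though earlier results of these data were known when the list was made, and 39 of them could be measured among 19938 genes tested. Each was read from the single-gene probe of highest mean. Ccnb1 was not analysed here, because no probe was annotated to it alone. The arrays profiled liver tissue free of tumor from female mice aged 14 months in 3 groups: Mdr2-KO/IL6-KO mice, which lack both genes (6 arrays), Mdr2-KO mice (5 arrays) and wild-type C57BL/6 mice (3 arrays). Mdr2 is an earlier name for Abcb4, which moves phospholipid into bile, and mice without it develop chronic bile duct injury and later liver tumors. IL6 is interleukin 6, a cytokine of inflammation and liver regeneration. The labels give a strain for wild type only and do not say whether each array came from a separate mouse. Every p-value therefore measures the spread between these arrays.

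A cell enters the cycle when D-type cyclins with Cdk4 or Cdk6, and then E-type cyclins with Cdk2, free the E2F transcription factors, which switch on the genes of DNA replication. Later a second group of genes, driven by Foxm1 and MuvB complexes, is switched on for mitosis. Most hepatocytes of an adult liver rest outside the cycle, so proliferation genes in whole liver also carry the signal of any dividing immune, ductal or other cell. The members are Ccnd1, Ccnd2, Ccne1, Ccne2, Cdk2, Cdk4 and Cdk6 (entry into the cycle), E2f1, E2f8 and Foxm1 (transcription factors), Cdc6, Mcm2 to Mcm7 and Pcna (replication) and Rrm1, Rrm2 and Tyms (nucleotide supply). For mitosis they are Cdk1, Ccna2, Ccnb2, Cdc25c, Plk1, Aurka and Aurkb (G2/M cyclins and kinases), Cdc20, Bub1, Bub1b, Mad2l1, Birc5, Kif11, Kif20a, Nusap1 and Tpx2 (spindle and checkpoint) and Mki67 and Top2a (chromosome markers).

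Values are log2 signal, means carry their SD, and differences are in log2 units with their SE or 95% interval. A gene was called at an adjusted p of at most 0.05 in limma over all genes tested. Array medians lay between 6.15 and 6.24. A background level of 5.48 was read from olfactory receptor genes, and Cdc25c and Bub1 have means under it. Abcb4 was 9.05 ± 0.20 in Mdr2-KO/IL6-KO and 9.01 ± 0.19 in Mdr2-KO, against 10.36 ± 0.03 in wild type (adjusted p = 4.84e-06 and 5.09e-06 in limma). Il6 averaged 3.48 in Mdr2-KO/IL6-KO, 3.07 in Mdr2-KO and 3.22 in wild type, under background in all 3 groups, so its array signal does not check that label. Hepatocyte markers were high in all groups, with 7 of 7 measured markers over background.

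Few cell cycle genes were called between the genotypes. Of the 39 members, 24 were in the top 10% of all genes for SD inside groups. A wide spread makes a call harder, so the shares over all genes below are not a like comparison. In Mdr2-KO against wild type, 0 of 39 members were higher and 2 were lower, Ccnd2 and Cdk2, where 21.0% of all genes tested were called (8.89% higher and 12.1% lower). Unadjusted, 6 of the 39 members had a p under 0.05 in limma (7469 of all 19938 genes). In Mdr2-KO/IL6-KO against wild type, limma called 0 members in either direction, where 12.3% of all genes were called. There 3 members had an unadjusted p under 0.05 (5089 of all 19938 genes). Between Mdr2-KO/IL6-KO and Mdr2-KO limma also called 0, where 8.76% of all genes were called. In that comparison 6 members had an unadjusted p under 0.05 (5770 of all 19938 genes). The median difference of the members was -0.027 in Mdr2-KO minus wild type (-0.073 over all genes), -0.027 in Mdr2-KO/IL6-KO minus wild type (-0.018 over all genes) and 0.013 between the knockouts (0.06 over all genes). The first 2 comparisons share the wild-type arrays. The shares of all genes called also rest on single arrays, and were 10.7% in Mdr2-KO minus wild type and 8.2% in Mdr2-KO/IL6-KO minus wild type without wild-type array 3, and 3.78% between the knockouts without Mdr2-KO array 1. Single arrays decided some of these calls: without wild-type array 2, Pcna and Mad2l1 were higher in Mdr2-KO than in wild type (adjusted p = 0.0211 and 0.0451), and without Mdr2-KO array 3, Ccne1 and Cdc6 were also lower there (0.0477 and 0.0403). Without wild-type array 3, Ccne2 was lower in Mdr2-KO/IL6-KO than in wild type (adjusted p = 0.038), and without Mdr2-KO/IL6-KO array 6, Ccnd2 was (0.0345).

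A member that was not called is not shown to be equal between genotypes. The 95% interval of the difference lay within 1 log2 unit, a 2-fold change, for 36 of 39 members (92.3%) in each comparison with wild type. Over all genes that share was 96.2% in each. Between the knockouts it was 38 of 39 members (97.4%), against 98.8% of all genes. Arrays of Mdr2-KO and wild type did not overlap for 2 members (23.5% of all genes), those of Mdr2-KO/IL6-KO and wild type for 0 members (15.1% of all genes) and those of the knockouts for 3 members, Cdk4, E2f1 and Pcna (7.34% of all genes). In whole tissue, fewer cells of a type and less RNA per cell cannot be told apart.

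**Figure D1:**
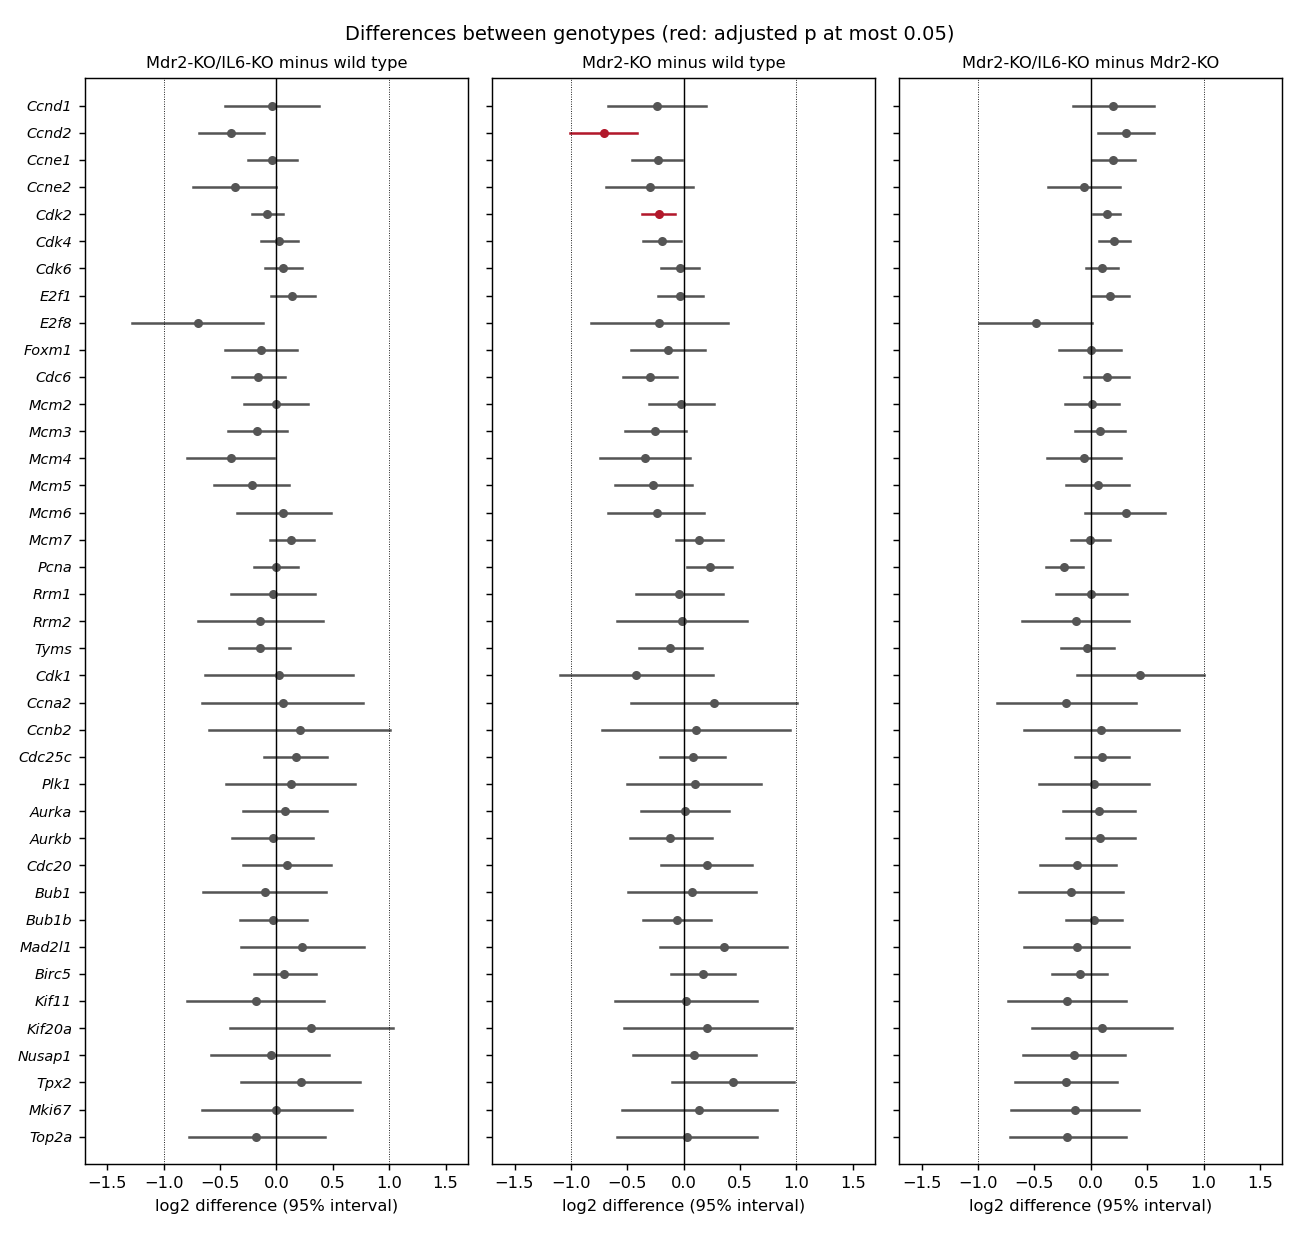
Difference of each measured cell cycle gene (log2 units, x axis) in the 3 comparisons of genotypes, with 95% intervals from limma. Ccnd2 and Cdk2 in Mdr2-KO minus wild type are the called genes, and dotted lines mark a difference of 1 log2 unit.

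Of the genes of cycle entry, Ccnd2, the D-type cyclin prominent in lymphocytes and some other cells, was the member with the lowest difference in Mdr2-KO. Its signal was 8.48 at the lowest, 8.66 at the median and 8.99 at the highest in the 6 Mdr2-KO/IL6-KO arrays, 8.19, 8.53, 8.16, 8.50 and 8.55 in Mdr2-KO, and 8.98, 9.36 and 8.95 in wild type. All 5 Mdr2-KO arrays lay under all 3 wild-type arrays, and those of Mdr2-KO/IL6-KO reached just into the wild-type range. Ccnd2 fell by 0.71 in Mdr2-KO, 1.63-fold lower (SE 0.14, adjusted p = 0.00318, limma). The difference was -0.40 in Mdr2-KO/IL6-KO minus wild type (95% interval -0.69 to -0.11, adjusted p = 0.0714) and 0.31 between the knockouts (0.06 to 0.56, adjusted p = 0.0991), neither of which was called.

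Some lymphocyte markers were lower beside Ccnd2. Of 8 T and NK cell markers, 0 were higher and 4 lower in Mdr2-KO/IL6-KO versus wild type, and 0 higher and 2 lower in Mdr2-KO (all genes called lower 5.33% and 12.1%). Their summed linear signal was 480 to 739 in Mdr2-KO/IL6-KO and 512 to 731 in Mdr2-KO, against 726 to 1380 in wild type, with 2 of 8 means under background in each group. Of 7 B and plasma cell markers, 2 were lower and 0 higher in each knockout against wild type, and their summed signal was 559 to 1081 in Mdr2-KO/IL6-KO and 603 to 967 in Mdr2-KO, against 684 to 1112 in wild type, ranges that overlap. Of these 7 means, 1 lay under background in Mdr2-KO/IL6-KO, 2 in Mdr2-KO, among them Ms4a1 at 5.07, and 0 in wild type. Ms4a1 and Cd79b, B cell surface proteins, were the lower markers, whereas Jchain, the joining chain of plasma cells, differed the other way without being called, by 1.10 in Mdr2-KO/IL6-KO and 0.80 in Mdr2-KO minus wild type (adjusted p = 0.124 and 0.209, limma). Wild-type array 2 had the highest Ccnd2 and the highest mean of both marker lists. Their part in the Ccnd2 result was not tested.

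Cdk2, the kinase partner of E-type cyclins, was 7.20 at the lowest, 7.35 at the median and 7.52 at the highest in Mdr2-KO/IL6-KO, 7.26, 7.12, 7.27, 7.24 and 7.18 in Mdr2-KO, and 7.41, 7.47 and 7.43 in wild type. The Mdr2-KO arrays lay under the wild-type arrays by a small margin. Cdk2 fell by 0.22 in Mdr2-KO, 1.17-fold lower (SE 0.07, adjusted p = 0.033, limma), and this call was lost when arrays were centred on their median (adjusted p = 0.0698) and when any 1 wild-type array was left out (adjusted p = 0.0638, 0.0753 and 0.0819 without arrays 1, 2 and 3). It was also lost without Mdr2-KO array 2 (adjusted p = 0.0553) or array 5 (0.0564).

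Cdk4, a partner of D-type cyclins, was 9.88 at the lowest, 10.03 at the median and 10.08 at the highest in Mdr2-KO/IL6-KO, 9.66, 9.83, 9.74, 9.86 and 9.85 in Mdr2-KO, and 9.83, 10.13 and 9.97 in wild type. The knockouts did not overlap, while wild type covered parts of both ranges. The difference of 0.21 between the knockouts had the lowest adjusted p of the members there (0.0603, limma) and was not called, but it passed without wild-type array 2 (adjusted p = 0.0457). Ccnd1, the D-type cyclin that hepatocytes use on entering the cycle, averaged 10.65 ± 0.26 in Mdr2-KO/IL6-KO, 10.45 ± 0.41 in Mdr2-KO and 10.69 ± 0.26 in wild type, within the spread between arrays. Mdr2-KO array 3 was its lowest array, at 9.85, and Mdr2-KO array 4 its highest, at 11.00. Ccne1 differed by -0.23 and Ccne2 by -0.30 in Mdr2-KO minus wild type, and Cdk6 by -0.03, and none was called.

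**Figure D2:**
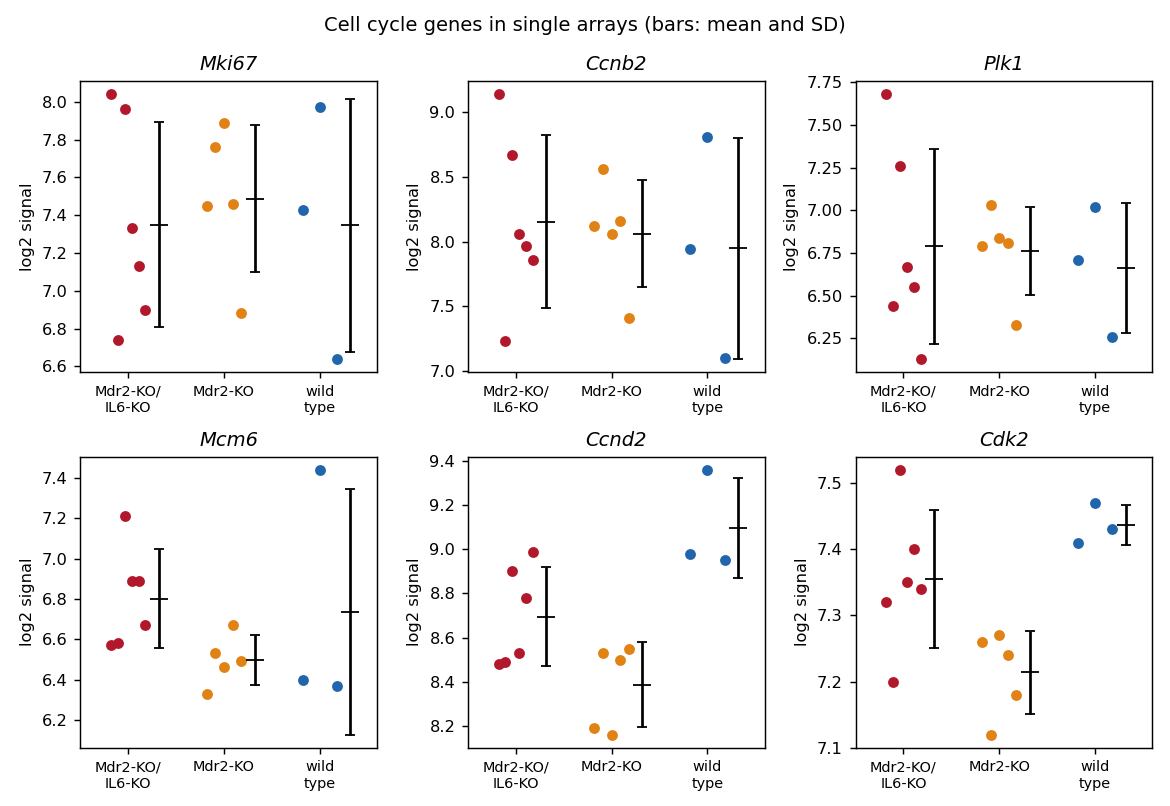
Log2 signal (y axis) of 6 cell cycle genes in each array (points), with the mean and SD of the group beside them. Mki67, Ccnb2 and Plk1 spread widely inside every genotype, whereas the 5 Mdr2-KO arrays lie under the 3 wild-type arrays for Ccnd2 and Cdk2.

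Of the transcription factors, E2f8, an atypical E2F that represses cell cycle genes and promotes polyploidy in liver cells, varied most in level. Its signal was 5.56 at the lowest, 6.17 at the median and 6.66 at the highest in Mdr2-KO/IL6-KO, 6.60, 6.87, 7.25, 6.51 and 5.93 in Mdr2-KO, and 6.77, 6.41 and 7.37 in wild type. The groups overlapped. The difference of -0.70 in Mdr2-KO/IL6-KO minus wild type had a 95% interval of -1.28 to -0.12 and an adjusted p of 0.115 (limma). Foxm1, the activator of mitotic genes, averaged 5.89 ± 0.29 in Mdr2-KO/IL6-KO, 5.89 ± 0.16 in Mdr2-KO and 6.03 ± 0.24 in wild type. E2f1, an activating E2F, averaged 6.98 ± 0.12, 6.81 ± 0.06 and 6.83 ± 0.23 in the same groups.

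The replication members were called in no comparison (0 of 8, limma). Of all genes, 21.0% were called in Mdr2-KO minus wild type, 12.3% in Mdr2-KO/IL6-KO minus wild type and 8.76% between the knockouts. Two-sided unadjusted p-values under 0.05 in limma were found for 2 replication members in Mdr2-KO minus wild type (7469 of all 19938 genes). They were found for 1 in Mdr2-KO/IL6-KO minus wild type (5089 of all genes) and for 1 between the knockouts (5770 of all genes). Mcm6, a subunit of the replicative helicase, was 6.57 at the lowest, 6.78 at the median and 7.21 at the highest in Mdr2-KO/IL6-KO, 6.33, 6.53, 6.46, 6.67 and 6.49 in Mdr2-KO, and 6.40, 7.44 and 6.37 in wild type. Wild-type array 2 stood about 1 log2 unit over the other wild-type arrays, so that the wild-type SD of 0.61 exceeded both knockout differences (0.06 in Mdr2-KO/IL6-KO and -0.24 in Mdr2-KO). Pcna, the sliding clamp of DNA polymerase, was 9.21 at the lowest, 9.32 at the median and 9.39 at the highest in Mdr2-KO/IL6-KO, 9.46, 9.57, 9.55, 9.73 and 9.40 in Mdr2-KO, and 9.34, 9.53 and 9.06 in wild type. Every Mdr2-KO array lay over every Mdr2-KO/IL6-KO array, and the difference of -0.24 between the knockouts had an adjusted p of 0.0675 (limma), which passed without wild-type array 2 (0.0432) or array 3 (0.0326). A further single-gene probe of Pcna differed by -0.25 in that comparison. The lowest differences in Mdr2-KO minus wild type were those of Mcm4, also a helicase subunit (-0.34, 95% interval -0.74 to 0.06), and Cdc6, which loads the helicase (-0.30, -0.54 to -0.06, adjusted p = 0.0719).

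Of nucleotide supply, 0 of 3 members were called in any comparison, where limma called 8.76% to 21.0% of all genes. Against wild type 0 of 3 had an unadjusted p under 0.05 (7469 of all 19938 genes for Mdr2-KO and 5089 for Mdr2-KO/IL6-KO, limma). Rrm2, the regulated subunit of ribonucleotide reductase, averaged 6.91 ± 0.42 in Mdr2-KO/IL6-KO, 7.04 ± 0.43 in Mdr2-KO and 7.06 ± 0.44 in wild type. Tyms, thymidylate synthase, averaged 7.29 ± 0.21, 7.31 ± 0.13 and 7.44 ± 0.28 in the same groups. These means differed by less than the spread between arrays.

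The 18 measured genes of mitosis (7 G2/M, 9 spindle and checkpoint and 2 chromosome markers) spread widely between arrays. In no comparison were they called (0 of 18, limma), where 8.76% to 21.0% of all genes were. Against wild type 0 of 18 had an unadjusted p under 0.05 (7469 of all 19938 genes for Mdr2-KO and 5089 for Mdr2-KO/IL6-KO, limma). The mean over the 18 genes was 6.50 ± 0.44 in Mdr2-KO/IL6-KO, 6.54 ± 0.25 in Mdr2-KO and 6.44 ± 0.45 in wild type, while single genes differed by up to 0.44. Mki67, which coats mitotic chromosomes and is the usual stain for dividing cells, was 6.74 at the lowest, 7.23 at the median and 8.04 at the highest in Mdr2-KO/IL6-KO, 7.45, 7.76, 7.89, 7.46 and 6.88 in Mdr2-KO, and 7.43, 7.97 and 6.64 in wild type. Each genotype held both a high and a low array. Its range inside a group was 2.45-fold in Mdr2-KO/IL6-KO, 2.02-fold in Mdr2-KO and 2.51-fold in wild type, while the difference was 0.14 in Mdr2-KO minus wild type (95% interval -0.55 to 0.83) and 0.00 in Mdr2-KO/IL6-KO minus wild type (-0.66 to 0.67).

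Ccnb2, a mitotic B-type cyclin, was 7.23 at the lowest, 8.01 at the median and 9.14 at the highest in Mdr2-KO/IL6-KO, 8.12, 8.56, 8.06, 8.16 and 7.41 in Mdr2-KO, and 7.94, 8.81 and 7.10 in wild type. It spread 3.75-fold among the Mdr2-KO/IL6-KO arrays. Plk1, a kinase of mitotic entry and exit, was 6.13 at the lowest, 6.61 at the median and 7.68 at the highest in Mdr2-KO/IL6-KO, 6.79, 7.03, 6.84, 6.81 and 6.33 in Mdr2-KO, and 6.71, 7.02 and 6.26 in wild type. The genotypes overlapped for both genes. Cdk1, the mitotic kinase, averaged 7.68 ± 0.54 in Mdr2-KO/IL6-KO, 7.24 ± 0.24 in Mdr2-KO and 7.66 ± 0.77 in wild type. Kif20a, a kinesin of cytokinesis, averaged 6.57 ± 0.65, 6.47 ± 0.38 and 6.26 ± 0.63 in the same groups. The largest positive differences of any member were those of Tpx2, a spindle assembly factor, in Mdr2-KO minus wild type (0.44, 95% interval -0.10 to 0.98, adjusted p = 0.216, limma) and of Cdk1 between the knockouts (0.44, SE 0.26, adjusted p = 0.274).

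A further probe of Top2a, the topoisomerase that untangles sister chromosomes, has a mean of 3.17, under background, and was higher in Mdr2-KO than in wild type by 0.53 (adjusted p = 0.0104 over all probes, limma). The brighter probe, on which the text rests, differed by 0.03 and was not called.

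These genes spread widely between arrays of the same genotype. The pooled SD inside groups had a median of 0.45 over the G2/M members, 0.41 over the spindle members, 0.20 over the replication members and 0.15 over the genes of cycle entry, against 0.128 over all genes tested. Of the 39 members, 36 exceeded that overall median and 24 were in the top 10% of all genes, among them 15 of the 18 mitotic genes.

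The same few arrays were high or low for most mitotic genes. The mean of the 18 genes was 6.01 at the lowest and 7.13 at the highest in Mdr2-KO/IL6-KO, 6.55, 6.73, 6.72, 6.58 and 6.12 in Mdr2-KO, and 6.48, 6.87 and 5.98 in wild type. Mdr2-KO/IL6-KO array 1 was the highest of its group for 16 of the 18 genes, Mdr2-KO array 5 was the lowest of its group for 17, and wild-type array 3 was the lowest of its group for 17. Over all genes tested these arrays held that place for 20.8%, 16.9% and 29.1%. Wild-type array 2 was the highest wild-type array for 35 of the 39 members (27.1% of all genes).

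**Figure D3:**
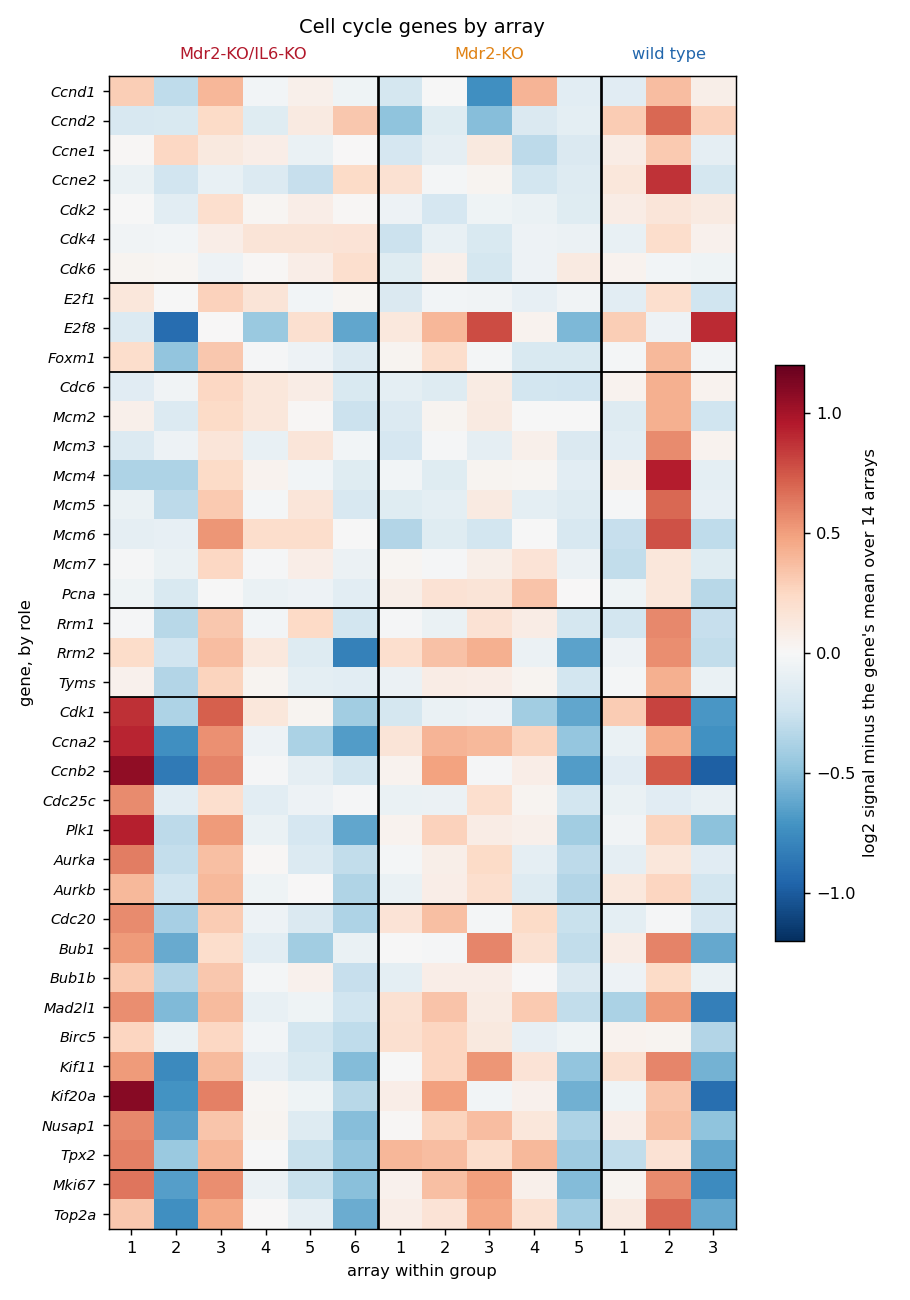
Log2 signal of each measured cell cycle gene (rows, grouped by role and divided by lines) in each array (columns), as the difference from the gene's mean over the 14 arrays. Most mitotic genes in the lower part are red together in Mdr2-KO/IL6-KO array 1 and wild-type array 2 and blue together in Mdr2-KO/IL6-KO array 2, Mdr2-KO array 5 and wild-type array 3.

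Each member was set against Mki67 over the 14 arrays after its group mean was taken away, which removes any difference between genotypes. The permutations (100000, two-sided) shuffled arrays inside groups, and p-values were adjusted over the 38 relations. For all 17 other mitotic genes the correlation was positive, with Pearson's r between 0.67 (Cdc25c) and 0.99 (Kif11) and a median of 0.92, and all 17 passed at an adjusted p of at most 0.05. Kif11, the motor that pushes the spindle poles apart, had r = 0.99 and Spearman's rho = 0.98 (raw permutation p = 1e-05 for each, the smallest these permutations can give, adjusted p = 0.00013 and 0.00019). Without the 2 arrays farthest from the median of Mki67, wild-type array 3 and Mdr2-KO/IL6-KO array 2, the 17 values of r lay between 0.71 and 0.98. The group means taken away there still included these 2 arrays. Over all other genes tested r had a median of -0.08 and ran from -0.92 to 0.99. How many of those genes would pass was not counted, so the counts of members that passed have no share over all genes beside them. The points are arrays of whole tissue, so the correlations describe genes that vary together.

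Genes of earlier phases had lower median values of r. For nucleotide supply r was 0.72 to 0.88, and 3 of 3 passed. For the replication members it was 0.36 to 0.75, and 3 of 8 passed: Mcm2 (r = 0.75, rho = 0.76, adjusted permutation p = 0.023 and 0.018), Mcm5 (0.70 and 0.68, adjusted p = 0.039 and 0.046) and Pcna (0.74 and 0.82, adjusted p = 0.012 and 0.0051). Foxm1 had r = 0.84 and rho = 0.81 (adjusted permutation p = 0.0025 and 0.0046), and E2f1 had r = 0.73 and rho = 0.78 (adjusted p = 0.026 and 0.017). E2f8 had r = 0.31 and rho = 0.24 (adjusted p = 0.35 and 0.50). For the genes of cycle entry r ran from -0.42 (Cdk6) to 0.49 (Ccne2), and 0 of 7 passed (0 of 7 also at an unadjusted permutation p under 0.05). Ccnd2, which was lower in Mdr2-KO, had r = 0.04 and rho = -0.05 (adjusted permutation p = 0.89 and 0.87). Whether these groups of genes differ from each other in r was not tested.

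Replication and mitosis were highest in different Mdr2-KO/IL6-KO arrays. Array 1 was the highest for 16 of the 18 mitotic genes and for 0 of the 8 replication genes, and the lowest for 3 of those 8. Array 3 was the highest for 8 of 8 replication genes and for 2 of the 18 mitotic genes. The mean of the replication genes was 6.80, 6.75, 7.16, 6.95, 6.99 and 6.79 in Mdr2-KO/IL6-KO arrays 1 to 6, while the mean of the mitotic genes was 7.13, 6.01, 6.92, 6.47, 6.35 and 6.12. In wild type, array 2 was highest for both, at 7.42 for replication and 6.87 for mitosis. The bile duct marker mean was 6.90, 7.76, 7.31, 7.37, 7.38 and 7.81 in Mdr2-KO/IL6-KO arrays 1 to 6, lowest in the array with the highest mitotic mean. In Mdr2-KO it was 7.12, 7.19, 6.86, 7.51 and 7.72, highest in the array with the lowest mitotic mean, and in wild type it was 6.34, 6.50 and 5.98, highest in the array with the highest mitotic mean and lowest in the one with the lowest. The summed linear signal of the 7 bile duct markers was 1251 to 2719 in Mdr2-KO/IL6-KO and 1294 to 2221 in Mdr2-KO, against 586 to 916 in wild type, where 2 of the 7 means lay under background. The part of bile duct cells in these patterns was not tested.

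**Figure D4:**
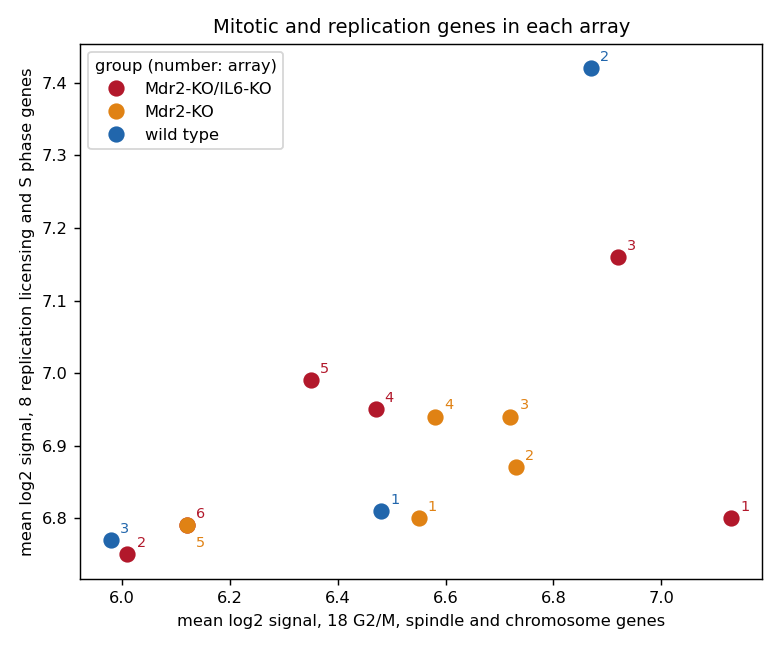
Mean log2 signal of the 18 mitotic genes (x axis) and of the 8 replication genes (y axis) in each array (numbered points, colored by genotype). Mdr2-KO/IL6-KO array 1 has the highest mitotic mean (7.13) beside a replication mean of 6.80, wild-type array 2 has the highest replication mean (7.42), and Mdr2-KO/IL6-KO array 6 lies under Mdr2-KO array 5 at 6.12 and 6.79.

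Another set of markers stood apart in 2 arrays. The mean of 8 neutrophil markers was 8.93 in Mdr2-KO array 3 and 7.87 in Mdr2-KO/IL6-KO array 2, and 5.52 to 5.89 in every other array. Their summed linear signal ran 397 to 2489 in Mdr2-KO/IL6-KO, 419 to 5378 in Mdr2-KO and 426 to 470 in wild type, with 1, 1 and 3 of 8 means under background. Mpo and Elane, enzymes made by neutrophil precursors in marrow, were 9.16 and 9.21 in Mdr2-KO array 3. That array was the highest of its group for 18 of the 39 members (20.1% of all genes), and Mdr2-KO/IL6-KO array 2 was the lowest of its group for 20 (19.2% of all genes). With both arrays left out, an alternative added after the data were seen, 4 members were lower in Mdr2-KO than in wild type (Ccnd2, Cdk2, Ccne1 and Cdc6), the same 4 as without Mdr2-KO array 3 alone. The part of these cells was not tested.

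Promoter sequences are shown because the mitotic and the replication genes varied in partly different arrays, and promoter elements are known for each class. Windows of 300 bases, 250 before and 50 after the start, come from RefSeq on GRCm38.p6 and were found for 30 of the 40 members. They were searched on both strands for the cell cycle homology region (CHR, TTTGAA or TTTAAA), the CCAAT box (CCAAT) and an E2F site (the letters TTCCCGC and also TTCGCGC and also TTGCCGC and also TTGGCGC), and an inverted CCAAT box can share bases with the last of these. In the sequences below, 5′ to 3′ on the strand of the gene, capitals mark the matches. Ccnb2 lies on the minus strand at chr9:70421505-70421804, Kif11 on the plus strand at chr19:37376132-37376431, Mcm6 on the minus strand at chr1:128359656-128359955 and Cdk2 on the minus strand at chr10:128705002-128705301. Ccnb2 and Kif11 are examples of the mitotic genes, Mcm6 of the replication genes and Cdk2 of the called genes of cycle entry.
Ccnb2: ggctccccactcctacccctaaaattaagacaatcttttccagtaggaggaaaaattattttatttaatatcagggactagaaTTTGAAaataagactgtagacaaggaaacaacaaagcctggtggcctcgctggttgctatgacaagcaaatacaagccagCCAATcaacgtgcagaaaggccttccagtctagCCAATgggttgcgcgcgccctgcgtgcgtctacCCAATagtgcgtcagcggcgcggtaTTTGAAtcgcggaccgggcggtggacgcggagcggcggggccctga
Kif11: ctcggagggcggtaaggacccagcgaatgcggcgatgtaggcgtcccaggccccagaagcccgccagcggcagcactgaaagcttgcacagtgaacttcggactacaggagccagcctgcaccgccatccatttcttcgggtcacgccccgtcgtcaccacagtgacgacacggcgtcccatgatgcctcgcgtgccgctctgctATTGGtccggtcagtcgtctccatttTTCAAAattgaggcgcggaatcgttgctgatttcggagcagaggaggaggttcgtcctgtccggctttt
Mcm6: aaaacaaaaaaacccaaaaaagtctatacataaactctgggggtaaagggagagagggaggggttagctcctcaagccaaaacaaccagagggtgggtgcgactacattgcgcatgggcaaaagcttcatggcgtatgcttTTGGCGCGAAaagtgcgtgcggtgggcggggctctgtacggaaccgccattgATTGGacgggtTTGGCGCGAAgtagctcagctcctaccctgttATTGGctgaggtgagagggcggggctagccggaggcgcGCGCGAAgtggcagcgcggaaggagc
Cdk2: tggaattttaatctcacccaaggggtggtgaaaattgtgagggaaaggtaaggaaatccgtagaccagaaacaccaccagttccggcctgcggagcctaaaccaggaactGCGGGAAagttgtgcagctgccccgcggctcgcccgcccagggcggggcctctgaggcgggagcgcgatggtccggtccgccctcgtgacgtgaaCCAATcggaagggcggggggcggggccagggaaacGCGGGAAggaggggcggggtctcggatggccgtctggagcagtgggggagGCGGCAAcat

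The Ccnb2 window holds 3 CCAAT boxes, which begin 87, 54 and 21 bases before the start, and CHR matches that begin 167 bases before and 4 bases after it. Kif11 holds 1 inverted CCAAT box that begins 45 bases before the start and 1 CHR match on the minus strand that begins 19 bases before it. In Mcm6 there is no CHR match, and the letters TTGGCGCGAA, in which E2F matches of both strands overlap, occur at 109 and at 46 bases before the start. The Mcm6 window also holds inverted CCAAT boxes that begin 57 and 14 bases before the start, and a further E2F match 24 bases after it. Cdk2 holds E2F matches that begin 140 and 10 bases before the start and 40 bases after it. Its CCAAT box begins 45 bases before the start.

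Among the 14 mitotic genes with a window, 11 held a CHR match, 11 a CCAAT box and 10 both (71.4%), against 27.6%, 37.4% and 10.7% of all 32851 promoter windows. An E2F match was present in 3 of these 14 (21.4%), and in 6 of the 8 windows of replication genes (75.0%, Mcm7 having more than 1 window), against 9.57% of all windows. The replication windows held a CHR match in 2 of 8 and a CCAAT box in 7 of 8 (87.5%, against 78.6% of the mitotic genes). Of 4 windows of cycle entry genes, 1 held an E2F match and 1 a CCAAT box, both in Cdk2, and 1 held a CHR match. These counts describe letters in a window, which need not be bound.

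Genes of the same processes outside the 40 give the setting. Of 44 other replication genes, 2 were higher and 9 lower in Mdr2-KO than in wild type (all genes 8.89% and 12.1%), 0 were higher and 4 lower in Mdr2-KO/IL6-KO than in wild type (6.96% and 5.33%), and 0 were higher and 1 lower between the knockouts (5.04% and 3.72%). Rfc4, a subunit of the clamp loader that places Pcna on DNA, was 6.77 at the lowest, 7.34 at the median and 7.45 at the highest in Mdr2-KO/IL6-KO, 6.70, 6.67, 6.77, 7.10 and 6.77 in Mdr2-KO, and 7.60, 8.41 and 7.72 in wild type. All knockout arrays lay under all wild-type arrays. Rfc4 fell by 1.11 in Mdr2-KO (SE 0.19, adjusted p = 0.00113) and by 0.70 in Mdr2-KO/IL6-KO (adjusted p = 0.0188 with SE 0.18, limma). Without wild-type array 2 the second of these calls was lost (adjusted p = 0.115).

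Mcm10, which helps to activate the helicase, was 6.36 at the lowest, 6.49 at the median and 6.60 at the highest in Mdr2-KO/IL6-KO, 6.25, 6.49, 6.41, 6.34 and 6.66 in Mdr2-KO, and 7.13, 7.08 and 7.01 in wild type. Tk1, thymidine kinase of the salvage pathway, was 7.19 at the lowest, 7.30 at the median and 7.43 at the highest in Mdr2-KO/IL6-KO, 7.41, 7.22, 7.45, 7.32 and 7.38 in Mdr2-KO, and 7.68, 7.92 and 7.88 in wild type. Neither gene overlapped between a knockout and wild type, and both spread little inside groups. Mcm10 fell by 0.59 in Mdr2-KO/IL6-KO (adjusted p = 0.00028) and by 0.64 in Mdr2-KO (adjusted p = 0.000148), and Tk1 fell by 0.51 (adjusted p = 0.000426) and by 0.47 (adjusted p = 0.000906) in the same order of groups (limma). Rfc5, also of the clamp loader, fell by 0.46 in Mdr2-KO, Orc5, of the origin recognition complex, fell by 0.26 in Mdr2-KO/IL6-KO, and Tipin, of the fork protection complex, fell by 0.36 in Mdr2-KO/IL6-KO against Mdr2-KO (adjusted p = 0.00275, 0.046 and 0.0465). The calls of Orc5 and Tipin were each lost on leaving out any of 10 arrays, with adjusted p up to 0.181 and 0.107.

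**Figure D5:**
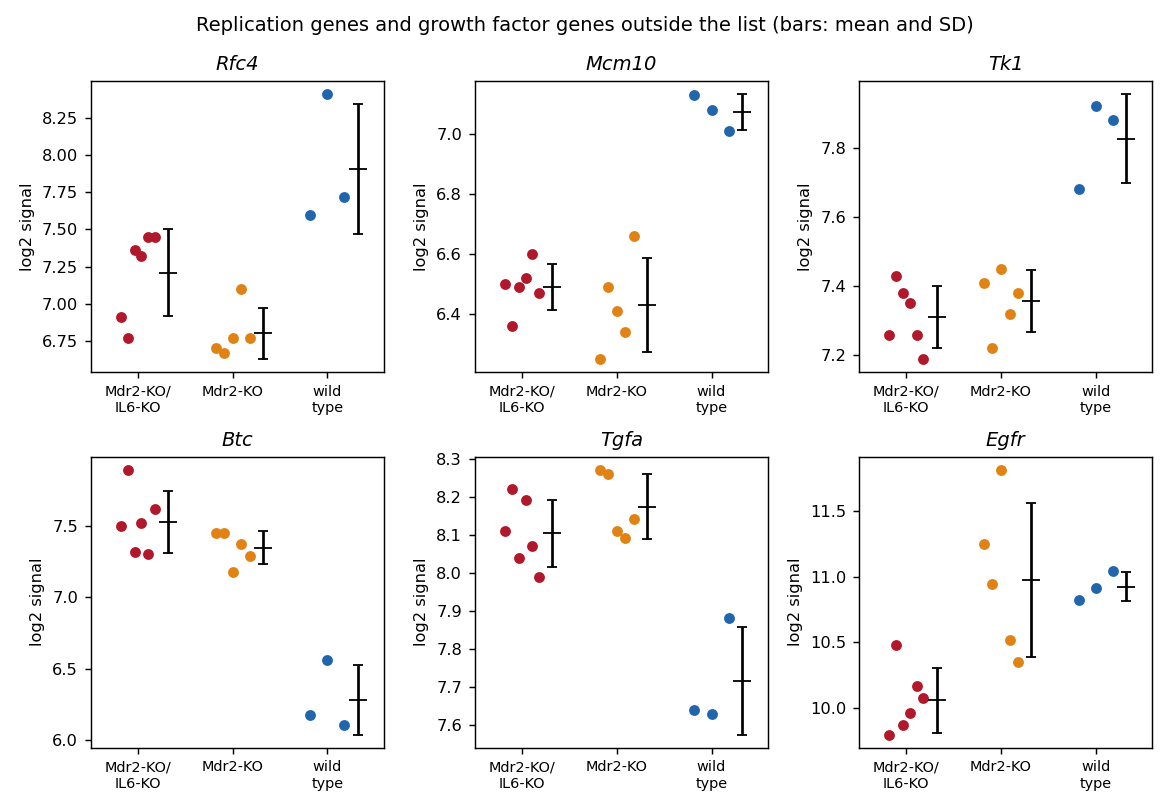
Log2 signal (y axis) of 3 replication genes and 3 growth factor or receptor genes outside the 40 in each array (points), with the mean and SD of the group beside them. Rfc4, Mcm10 and Tk1 lie lower, and Btc and Tgfa higher, in all knockout arrays than in all wild-type arrays, and Egfr is lower in Mdr2-KO/IL6-KO.

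Of 56 other mitosis genes, 0 were higher and 2 lower in Mdr2-KO against wild type (all genes 8.89% and 12.1%). In Mdr2-KO/IL6-KO against wild type 0 were called (all genes 12.3%). There 3 had an unadjusted p under 0.05 in limma (5089 of all 19938 genes). Between the knockouts 1 was higher and 0 lower (5.04% and 3.72%). Cks2, a subunit of cyclin-dependent kinases, fell by 0.33 and Zwint, a kinetochore protein, fell by 0.28 in Mdr2-KO (adjusted p = 0.0332 and 0.0128). Cit, citron kinase of cytokinesis, was higher by 0.23 in Mdr2-KO/IL6-KO than in Mdr2-KO (adjusted p = 0.0281). Stmn1, a microtubule destabiliser, differed by 0.45 in Mdr2-KO/IL6-KO minus wild type without being called (adjusted p = 0.253). The calls of Cks2 and Cit were each lost on leaving out any of 5 arrays, with adjusted p up to 0.119 and 0.0788.

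Of 19 brakes on the cycle, 1 was higher and 6 were lower in Mdr2-KO than in wild type (all genes 8.89% and 12.1%). In Mdr2-KO/IL6-KO against wild type 0 were higher and 2 lower (6.96% and 5.33%). Between the knockouts 0 were higher and 1 lower (5.04% and 3.72%). Cdkn2c, the p18 inhibitor of Cdk4 and Cdk6, was 7.60 at the lowest, 7.84 at the median and 7.91 at the highest in Mdr2-KO/IL6-KO, 8.17, 8.18, 8.24, 8.33 and 7.95 in Mdr2-KO, and 7.72, 7.66 and 7.08 in wild type. The Mdr2-KO arrays lay over those of both other groups. Cdkn2c rose by 0.69 in Mdr2-KO against wild type (adjusted p = 0.0021) and fell by 0.39 in Mdr2-KO/IL6-KO against Mdr2-KO (adjusted p = 0.0347, limma). Wee1, the kinase that holds Cdk1 inactive, fell by 0.84 in Mdr2-KO (adjusted p = 0.0382) with overlapping arrays. E2f6, a repressor E2F, fell by 0.62 in Mdr2-KO and by 0.38 in Mdr2-KO/IL6-KO against wild type (adjusted p = 0.00279 and 0.0422). Cdkn2a, the locus of the p16 and Arf tumor suppressors, fell by 0.36 in Mdr2-KO (adjusted p = 0.0169), and E2f5, a repressor E2F, fell by 0.36 in Mdr2-KO/IL6-KO (adjusted p = 0.0199). E2f5 was also called lower in Mdr2-KO than in wild type, a call lost on leaving out any of 4 arrays (adjusted p up to 0.108, limma). The rise of Cdkn2c and the fall of E2f6 in Mdr2-KO stayed called whichever array was left out. The calls of Wee1 (5 arrays), Cdkn2a (wild-type array 1 or 3), E2f5 in Mdr2-KO/IL6-KO (wild-type array 1 or 2), E2f6 in Mdr2-KO/IL6-KO (9 arrays) and Cdkn2c between the knockouts (8 arrays) were lost on leaving out 1 array, with adjusted p up to 0.15, 0.0817, 0.101, 0.19 and 0.0856.

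Of 11 partners of E2F and MuvB, 0 were called in Mdr2-KO against wild type (all genes 21.0%). There 3 had an unadjusted p under 0.05 in limma (7469 of all 19938 genes). In Mdr2-KO/IL6-KO versus wild type 1 was higher and 2 lower (all genes 6.96% and 5.33%). Between the knockouts 0 were higher and 1 lower (5.04% and 3.72%). Mybl1, a Myb family activator, rose by 0.95 in Mdr2-KO/IL6-KO (adjusted p = 0.0213) and differed by 0.73 in Mdr2-KO minus wild type (adjusted p = 0.0546), with arrays that overlapped wild type in both. Lin54, the DNA-binding subunit of MuvB, fell by 0.34, and Tfdp2, a dimerisation partner of E2F factors, fell by 0.28 in Mdr2-KO/IL6-KO against wild type (adjusted p = 0.012 and 0.0357). Tfdp2 also fell by 0.31 against Mdr2-KO (adjusted p = 0.0162). On leaving out 1 array, Mybl1 in Mdr2-KO/IL6-KO was lost without wild-type array 1 or 3 (adjusted p up to 0.145) and passed in Mdr2-KO without wild-type array 2 (0.00567), Mdr2-KO array 5 (0.0481) or Mdr2-KO/IL6-KO array 1 (0.0472). Lin54 was lost without wild-type array 2 (0.0745), Tfdp2 against wild type without any of 6 arrays (up to 0.154), and Tfdp2 against Mdr2-KO without Mdr2-KO array 1 (0.0518).

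Of 16 other cyclins and kinases, 2 were higher and 1 lower in Mdr2-KO than in wild type (all genes 8.89% and 12.1%). In Mdr2-KO/IL6-KO against wild type 1 was higher and 0 lower (6.96% and 5.33%). Between the knockouts 1 was higher and 4 were lower (5.04% and 3.72%). Cdk9, the kinase of transcription elongation, rose by 0.34 in Mdr2-KO/IL6-KO versus wild type and by 0.31 against Mdr2-KO (adjusted p = 0.00569 and 0.00872), and Ccnh, cyclin H, which forms the kinase that activates other cyclin-dependent kinases, fell by 0.41 against Mdr2-KO (adjusted p = 0.00484). Ccnc, cyclin C of the Mediator complex, and Ccni, cyclin I, fell by 0.36 and by 0.22 against Mdr2-KO (adjusted p = 0.0259 and 0.0491), calls lost on leaving out any of 5 and of 10 arrays (adjusted p up to 0.0682 and 0.126). In Mdr2-KO against wild type Ccni rose by 0.39 and Ccnt2 by 0.38, while Cdk8 of the Mediator complex fell by 0.29 (adjusted p = 0.00352, 0.00397 and 0.0409). The call of Cdk8 was lost on leaving out any of 10 arrays (adjusted p up to 0.123).

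Of 16 growth factors and receptors of hepatocyte proliferation, 2 were higher and 2 lower in Mdr2-KO than in wild type (all genes 8.89% and 12.1%). In Mdr2-KO/IL6-KO against wild type 4 were higher and 2 lower (6.96% and 5.33%). Between the knockouts 0 were higher and 1 lower (5.04% and 3.72%). Btc, betacellulin, a ligand of the epidermal growth factor receptor, was 7.30 at the lowest, 7.51 at the median and 7.89 at the highest in Mdr2-KO/IL6-KO, 7.45, 7.45, 7.18, 7.37 and 7.29 in Mdr2-KO, and 6.18, 6.56 and 6.11 in wild type. Every knockout array lay over every wild-type array. Btc rose by 1.24 in Mdr2-KO/IL6-KO and by 1.06 in Mdr2-KO (adjusted p = 2.14e-05 and 7.34e-05, limma). Tgfa, transforming growth factor alpha, also such a ligand, rose by 0.39 in Mdr2-KO/IL6-KO and by 0.46 in Mdr2-KO (adjusted p = 0.00317 and 0.0012), again without overlap.

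Egfr, the receptor itself, was 9.80 at the lowest, 10.02 at the median and 10.48 at the highest in Mdr2-KO/IL6-KO, 11.25, 10.94, 11.81, 10.52 and 10.35 in Mdr2-KO, and 10.82, 10.91 and 11.04 in wild type. All Mdr2-KO/IL6-KO arrays lay under wild type, and 1 of them overlapped Mdr2-KO. Egfr fell by 0.86 in Mdr2-KO/IL6-KO against wild type (adjusted p = 0.0277) and by 0.91 against Mdr2-KO (adjusted p = 0.0152). In Mdr2-KO minus wild type it differed by 0.05 (95% interval -0.48 to 0.57). Myc, a transcription factor of growth, rose by 0.82 in Mdr2-KO/IL6-KO against wild type (adjusted p = 0.0317), and Hbegf, a further receptor ligand named after its value was seen, rose by 0.75 (adjusted p = 0.00684). Lgr5, a receptor that raises Wnt signalling, fell by 1.09 in Mdr2-KO/IL6-KO and by 0.96 in Mdr2-KO (adjusted p = 0.00947 and 0.017), and Rspo3, its ligand, fell by 0.34 in Mdr2-KO (adjusted p = 0.018). Leaving out wild-type array 1 or 3 ended the calls of Lgr5 in Mdr2-KO (adjusted p up to 0.12), Rspo3 (up to 0.109) and Myc (up to 0.154, also without Mdr2-KO/IL6-KO array 6), and leaving out array 3 that of Lgr5 in Mdr2-KO/IL6-KO (0.072). That of Egfr against wild type was lost without any of 5 arrays (adjusted p up to 0.101), while that against Mdr2-KO stayed whichever array was left out.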

How the data were processed

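The deposited table holds log2 values of 35557 probes in 14 arrays, which the authors obtained from Partek and RMA (background correction, quantile normalization and probe summary), per the submitters' processing notes. The sources used here give no versions, build behind the probes, filter or pooling. Per the labels' protocols, biotinylated cRNA from Trizol-extracted total RNA was hybridised to Affymetrix arrays. No 2 arrays shared more than 0.062% of values, and no batch or scan date was given. Precision is limited by the number of arrays and by signal over background.

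GEO's platform annotation names 1 gene for 21789 probes, several for 1621 and none for 12147, and 21698 of the first were matched by gene identifier. A gene was its single-gene probe of highest mean, with no filter on dim genes. limma 3.58.1 (R 4.3.3) fitted 3 group means over 14 arrays with empirical Bayes moderation, two-sided moderated tests, adjusted by Benjamini-Hochberg over 19938 genes, with calls at 0.05. Background is the 95th percentile of the means of 1027 olfactory receptor genes, and 29.0% of genes lie under it. Sums of marker genes were taken over 2 to the power of the log2 value. Permutation tests of correlations used Python 3.11.15, numpy 2.4.6, scipy 1.17.1 and pandas 2.3.3, and plots matplotlib 3.10.9. Promoters came from a RefSeq table on GRCm38.p6.

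On simulated data of the same group sizes and 19938 genes, changes of 0.5 log2 units were recovered in 80% for Mdr2-KO minus wild type, 78% for Mdr2-KO/IL6-KO minus wild type and 91% for the 2 knockouts, and changes of 1 log2 unit in 98%, 99% and 98%. These rates are over all genes, whose median SD inside groups is 0.128, and need not hold for the mitotic members, all of whose SDs are higher.

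The members and lists were chosen with earlier results of these data known. All members may be named. Of each other list up to 4 called genes of largest change per comparison, or the largest where none passed, were named. Tgfa in Mdr2-KO/IL6-KO, E2f5 in Mdr2-KO and Hbegf were added after their values were seen. Listed genes without a single-gene probe were not analysed here. The alternatives were quantile normalization, median centring, a filter on dim genes, the mean of a gene's probes, trend and robust moderation, array weights, only the 2 groups compared, a fold of at least 1.5, and each array left out in turn.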

Additional observations from a re-analysis of the deposited data

Results flagged for a closer look

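Of 138 groups of 5 or 6 arrays examined over the members and the 30 other named genes, 9 held a single array far from the rest by Dixon's criterion, 3 of them among 78 groups of members, where chance gives about 1 in 20. Ccna2, cyclin A2 of S phase and mitosis, was 6.43 in Mdr2-KO array 5, against 7.05 to 7.30 in the other Mdr2-KO arrays. Tpx2 was 5.35 in the same array, against 5.99 to 6.18, and Stmn1 was 8.17 there, against 8.55 to 8.60. These 3 low values fall in the array that was the lowest of its group for 17 of the 18 mitotic genes, a count that includes Ccna2 and Tpx2. Genes that vary together share the same arrays, so the groups examined are not independent of each other. Mcm5, a helicase subunit, was 7.01 in Mdr2-KO array 3, against 6.75 to 6.79 in the other Mdr2-KO arrays, and Rspo3 was 6.99 in that array, against 7.27 to 7.36. Myc was 8.63 in Mdr2-KO array 2, against 7.87 to 8.04 in the others, and Rfc4 was 7.10 in Mdr2-KO array 4, against 6.67 to 6.77. In Mdr2-KO/IL6-KO, Ccni was 10.72 in array 1, against 10.50 to 10.56 in the others, and Cit was 6.13 in array 2, against 5.96 to 6.02.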

How the results depend on the processing

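Ccnd2 kept its call in Mdr2-KO minus wild type under 23 of 23 alternatives (adjusted p between 0.00239 and 0.0171, limma), and Cdk2 lost it under 8 of 23 (0.0125 to 0.0819). The count of members lower in Mdr2-KO was 2 as reported, 1 after median centring, with only the 2 groups or at a fold of at least 1.5, 1 to 4 with 1 array left out, and 4 when array 3 of Mdr2-KO was left out together with array 2 of Mdr2-KO/IL6-KO. The count of members higher there was 0 to 2 with 1 array left out, where Pcna and Mad2l1 were called without wild-type array 2. In Mdr2-KO/IL6-KO minus wild type the count lower was 0 to 1 with 1 array left out (Ccne2 without wild-type array 3, Ccnd2 without Mdr2-KO/IL6-KO array 6). Between the knockouts, Cdk4 was called higher (count 1) under quantile normalization, the filter on dim genes (36 members), array weights, only the 2 groups and without wild-type array 2, and Pcna was called lower (count 1) under array weights, only the 2 groups and without wild-type array 2 or 3, so that leaving out 1 array gave 0 to 1 for each. The causes of these changes were not tested. No called difference changed sign. Of 894 member values under alternatives per comparison, the sign of an uncalled difference turned in 46 (Mdr2-KO minus wild type), 69 (Mdr2-KO/IL6-KO minus wild type) and 52 (between the knockouts).

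Of the other named genes, Btc and Mcm10 in both knockouts, and Rfc4, Cdkn2c and E2f6 in Mdr2-KO, kept their calls under 23 of 23 alternatives. Orc5 lost its call in 15, Tipin in 12, Cdk8 in 14, Cks2 in 9, Wee1 in 8, Cit in 7 and Myc in 5 of 23. Rfc4 in Mdr2-KO/IL6-KO lost it in 1, and Egfr against Mdr2-KO in 0. Over all genes, lower calls in Mdr2-KO minus wild type numbered 2417 as reported and 1525 with only the 2 groups, and higher calls between the knockouts 1005 and 1566 with array weights. With 1 array left out, calls in either direction numbered 2140 to 4507 (4189 as reported) in Mdr2-KO minus wild type, the fewest without wild-type array 3 (988 higher and 1152 lower), 1635 to 2544 (2450) in Mdr2-KO/IL6-KO minus wild type and 754 to 2164 (1746) between the knockouts, and median centring moved the share of higher calls there from 57.6% to 47.6%. No paired analysis was possible because the labels give the groups no shared replicate numbers. Signal under background limits Cdc25c and Bub1. Some other members have group means just over it, such as Tpx2 (5.53 in wild type), Cdc6 (5.55 in Mdr2-KO) and Ccne2 (5.62 in Mdr2-KO/IL6-KO).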
